A study of Mus musculus with 50 samples.

Results

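Of the 481669 open-chromatin regions merged from all ATAC-seq libraries of the series, 2571 held a peak in each of the 6 liver libraries and in none of the 6 kidney libraries. They are called liver-only regions here. ATAC-seq, in which the Tn5 transposase cuts accessible DNA, was run on kidney and liver of untreated C57BL/6 mice, young at 2.5 months and old at 23-25 months, with 3 libraries per tissue and age. RNA-seq of the same tissues and ages, untreated as well, had 4 libraries per group. A second RNA-seq set held 4 liver and 4 kidney libraries of 20-21 month old C57BL/6 mice given DMSO and 4 liver libraries of mice of that age given 3C, a treatment named in the labels by this code only. Per the study's methods the young and old tissues came from female mice. Peaks of different libraries were joined into 1 region where they shared at least 1 bp, so membership rests on the peak calls of all 12 libraries, that is, the regions were chosen by the measured peaks, and fold enrichment in liver against kidney is no test of it. Fold enrichment is the height of a peak relative to the local background as the peak caller gave it.

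A hepatocyte gene is usually controlled by a promoter together with several enhancers, short stretches of accessible DNA that can lie far from the gene. These stretches are bound by a small set of factors shared among liver cells, including the hepatocyte factors HNF4A, FOXA and ONECUT (HNF6), the C/EBP factors and nuclear receptors. The liver is also home to sinusoidal endothelial cells, which use GATA4, to Kupffer cells, the resident macrophages, which use the ETS factor SPI1 (PU.1), and to stellate cells.

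Tissue markers differed between the libraries of the 2 tissues as labelled. The summed level of 22 kidney tubule and podocyte markers was 16285 to 29178 CPM (read counts per library size after TMM scaling, which adjusts the library totals for differences in RNA composition) in the kidney RNA libraries and 0.542 to 2.12 CPM in the liver libraries, where 11 of the markers, among them Umod, were at 0. In the ATAC libraries, 13 to 17 of these 22 genes had a promoter peak in kidney and 3 to 8 in liver, while 5 to 10 of 10 hepatocyte markers had one in liver and 1 to 3 in kidney. Libraries held 14238228 to 43704147 gene counts (RNA) and 93072 to 136849 peaks (ATAC). In 1 RNA library, old kidney replicate 2, the sum of 10 hepatocyte markers was 2318 CPM, against at most 217 CPM in the other kidney libraries, so the liver to kidney RNA comparisons are also given without it where it moved the value. Nothing in the labels says that replicates came from separate animals, and p-values then measure only the spread between these samples.

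Sequences of 8 regions are shown because the regions carry the results given below, namely the strongest peaks, promoters of liver genes, a region with several motifs, and regions that differed with age. Each is the 201 bp around the strongest summit, or less where bases of an untranslated region were left out, on the plus strand of GRCm38 (mm10), read 5′ to 3′. Capitals mark letters that match a searched motif on either strand. The first 3 are among the 10 regions with the highest fold enrichment.
chr8:42187177-42187377, intergenic, with HNF4A, C/EBP and AP-1 letters: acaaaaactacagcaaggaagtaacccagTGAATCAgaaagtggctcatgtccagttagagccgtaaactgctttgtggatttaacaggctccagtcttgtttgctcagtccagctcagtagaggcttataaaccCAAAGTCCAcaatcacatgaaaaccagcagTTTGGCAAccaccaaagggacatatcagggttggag
chr14:86727745-86727945, in an intron of Diaph3, with HNF4A letters: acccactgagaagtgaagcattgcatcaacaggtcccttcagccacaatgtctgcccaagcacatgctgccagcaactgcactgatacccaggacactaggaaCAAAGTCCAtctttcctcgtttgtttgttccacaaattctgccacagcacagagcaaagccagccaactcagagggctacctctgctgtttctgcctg
chr6:84841189-84841389, intronic and nearest to Gm7507, with FOXA and ONECUT letters: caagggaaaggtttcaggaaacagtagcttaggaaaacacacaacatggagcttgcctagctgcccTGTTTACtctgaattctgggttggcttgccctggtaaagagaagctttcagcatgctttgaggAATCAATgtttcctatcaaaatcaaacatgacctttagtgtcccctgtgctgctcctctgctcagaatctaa
chr4:6275810-6276010, promoter of Cyp7a1, with FOXA letters: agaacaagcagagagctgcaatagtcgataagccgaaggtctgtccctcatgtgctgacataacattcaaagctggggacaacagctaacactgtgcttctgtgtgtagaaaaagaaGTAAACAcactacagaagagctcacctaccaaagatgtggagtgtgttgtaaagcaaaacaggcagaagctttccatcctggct
chr2:163506662-163506807, promoter of Hnf4a, with ONECUT letters: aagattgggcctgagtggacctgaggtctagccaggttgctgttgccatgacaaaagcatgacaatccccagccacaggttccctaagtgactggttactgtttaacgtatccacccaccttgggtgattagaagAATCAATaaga
chr2:133617489-133617689, intergenic, with GATA, FOXA, ONECUT and C/EBP letters, the last pair sharing a base: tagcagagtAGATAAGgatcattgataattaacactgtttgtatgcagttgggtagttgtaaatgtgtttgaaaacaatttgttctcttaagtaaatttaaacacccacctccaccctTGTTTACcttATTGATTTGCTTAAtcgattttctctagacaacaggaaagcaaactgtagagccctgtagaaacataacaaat
chr8:8239622-8239822, in an intron of Gm31135, with SPI1 letters: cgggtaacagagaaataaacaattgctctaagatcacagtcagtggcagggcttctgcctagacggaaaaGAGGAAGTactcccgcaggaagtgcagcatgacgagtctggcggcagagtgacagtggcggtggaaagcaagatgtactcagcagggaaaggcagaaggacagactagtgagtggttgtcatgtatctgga
chr15:28106112-28106312, intronic and nearest to Gm31458, with GATA letters and the largest rise with age among regions called higher in old liver: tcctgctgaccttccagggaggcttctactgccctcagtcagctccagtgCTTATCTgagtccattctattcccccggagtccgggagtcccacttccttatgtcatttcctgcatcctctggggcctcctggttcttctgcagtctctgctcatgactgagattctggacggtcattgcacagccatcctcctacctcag

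Liver-only regions lay mostly away from gene starts, as did merged regions at large. Of the 2571 regions, 277 (10.8%) came within 1 kb of a transcription start site (TSS) and are called promoter regions. The others were placed by their summit, with 110 (4.28%) in an exon, 1179 (45.9%) in introns and 1005 (39.1%) intergenic. The median distance to the nearest TSS was 11178 bp, 46.7% of the regions were within 10 kb of a TSS, and 106 (4.12%) were more than 100 kb away. Over all 481669 merged regions the values were near these, with 11.3% at promoters, 41.8% in introns, 43.2% intergenic and a median distance of 13561 bp. The 24014 regions open in all 12 libraries were placed otherwise, with 52.5% at promoters and a median distance of 454 bp. The 7687 kidney-only regions, open in all kidney and no liver libraries, resembled the liver-only regions in these values, with 13.3% at promoters and a median of 10783 bp. Median width was 670 bp (268 to 2761 bp), and the median GC content around the summit was 48.3%, against 54.2% in the 32268 other regions open in all 6 liver libraries. Among regions away from promoters the GC medians were 48.3% and 50.7%.

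**Figure D1:**
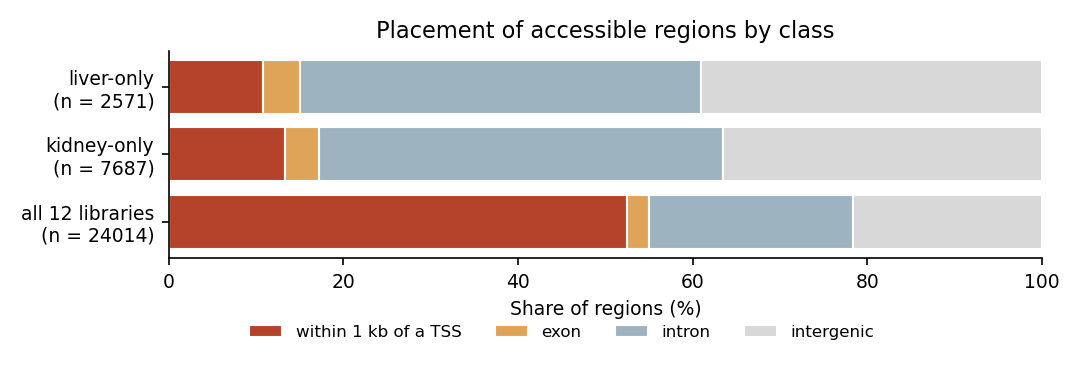
Placement of liver-only, kidney-only and all-library regions relative to genes, as percent of the regions of each class. Promoter regions made up 10.8% of the liver-only regions and 52.5% of the regions open in all 12 libraries.

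Neighbouring members were common. When regions less than 100000 bp apart were joined, the 2571 regions formed 1956 groups, of which 1516 held a single region, and 1055 regions (41.0%) had at least 1 liver-only neighbour. The 15 groups of 5 or more included 6 regions on chromosome 10 from 25499656 to 25622069 by Epb41l2 and Smlr1, 6 on chromosome 9 by 1190002N15Rik, 5 across 6242792 to 6276041 of chromosome 4 at Cyp7a1, the rate-limiting enzyme of bile acid synthesis, and 5 on chromosome 5 at Abcb4, which exports phospholipid into bile. Chromosomes 2, 3 and 1 held the most members, with 211, 210 and 205, and of the chromosomes with any member 19 and X held the fewest, with 21 and 30.

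Letters bound by hepatocyte factors were frequent in the 201 bp around the summits. The C/EBP letters TTGCNNAA (N is any base) were found in 515 liver-only regions (20.0%), against 8.55% of the 32268 other regions open in all liver libraries and 9.13% of kidney-only regions. FOXA letters (TGTTTAC) were in 243 (9.45%), against 3.37% and 3.29%. ONECUT letters (ATTGATT) had the widest ratio, with 190 regions (7.39%) against 1.34% and 1.0%. GATA letters (AGATAAG) were in 121 (4.71%), against 1.96% and 1.24%. Thus each of these 4 was at a higher share in liver-only regions than in either other class, and the same held among regions away from promoters, where the liver-only shares were 20.0%, 9.46%, 7.63% and 4.53% against 11%, 4.54%, 1.80% and 2.63% in the other liver regions. These shares are counts of letters, with no test.

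The remaining motifs did not share this order. HNF4A letters (CAAAGTCCA) were in 38 regions (1.48%), against 0.64% of other liver regions and 2.19% of kidney-only regions. The PPAR-RXR letters AGGTCAAAG were in 22 (0.86%), against 0.47% and 0.87%. AP-1 letters (TGANTCA) were in 190 (7.39%), against 6.53% and 9.90%, and SPI1 letters (GAGGAAGT) in 85 (3.31%), against 3.77% and 1.48%. The 2 motifs typical of promoters and insulators were rare. The GC box GGGGCGGGG was in 13 liver-only regions (0.51%), against 7.08% of other liver regions and 1.08% of kidney-only regions. The CTCF letters AGGTGGCAG were in 10 (0.39%), against 2.39% and 0.61%. Away from promoters the GC box shares were 0.39%, 1.11% and 0.69% in the same order, and the CTCF shares 0.39%, 3.22% and 0.60%. Kidney-only regions were thus nearer to the liver-only shares than the other liver regions were. At least 1 of the liver motifs (HNF4A, C/EBP, FOXA, ONECUT, PPAR-RXR) was present in 892 liver-only regions (34.7%) and in 13.6% of the other liver regions. The region on chromosome 2 from 133617489, shown above, held 4 different motifs, the most found in any member, and the protein-coding gene nearest to it is Bmp2, a ligand made by sinusoidal endothelial cells.

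**Figure D2:**
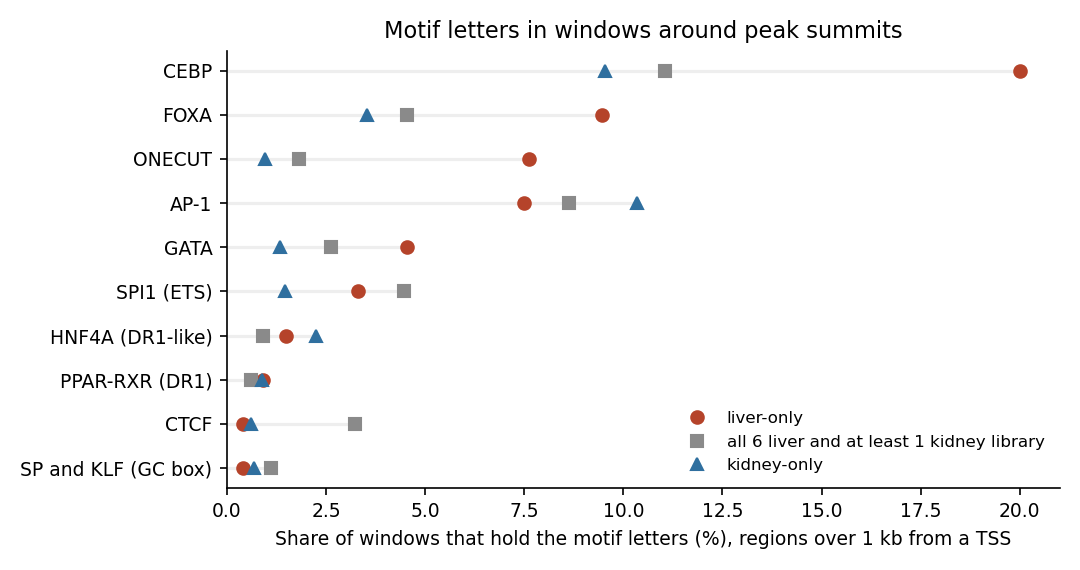
Percent of regions away from promoters that hold the letters of each motif within the 201 bp at the summit, for liver-only, other liver (open in all 6 liver and at least 1 kidney library) and kidney-only regions, with gray lines up to the highest point. C/EBP, FOXA, ONECUT and GATA letters were at 20.0%, 9.46%, 7.63% and 4.53% of the liver-only regions.

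Most members were moderate peaks. The mean fold enrichment over the 6 liver libraries had a median of 3.97, with quartiles of 3.36 and 4.88 and a range from 2.03 to 11.2. The weakest of the 6 peaks of a region had a median −log10 q of 2.28, and 360 regions (14%) reached a −log10 q of 5 in every liver library. Just outside the rule, 3558 regions had peaks in 5 liver and no kidney libraries, with a median fold enrichment of 3.4, and old liver replicate 3 was the one without a peak in 1300 of them (36.5%). A further 1290 regions had peaks in all 6 liver libraries and 1 kidney library, with a median of 3.84 in liver and 2.66 in that kidney library.

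Of the 10 regions with the highest fold enrichment, only the one at Epb41l2 lay at a promoter, and the others were intronic or intergenic. The highest, chr10:3706187-3706796 and 33568 bp from the TSS of Plekhg1, stood at 13.7, 13.9 and 15.2 in the young livers and 9.12, 9.47 and 5.78 in the old. The second, chr2:115933224-115933649 near Meis2, stood at 13.8, 10.8 and 11.4 in young and 8.48, 8.41 and 8.63 in old livers. In both regions each young library was above each old library. The intronic region chr6:84841064-84841674 showed the widest separation among the 10, with 15.2, 12.4 and 12.5 in young livers and 5.6, 5.05 and 4.54 in old livers. By contrast chr10:25499656-25500430, an Epb41l2 region, gave 12.8, 9.68 and 9.35 in young and 9.6, 8.81 and 8.17 in old livers, and the ages overlapped.

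As a set, liver-only regions had lower fold enrichment in old than in young livers. The median over the 2571 regions was 4.70, 4.12 and 4.17 in the young livers and 3.37, 3.63 and 3.27 in the old livers, with no overlap. Over the 32268 other regions open in all liver libraries the medians were 5.17, 4.50 and 4.66 in young and 4.88, 4.37 and 4.62 in old livers, which did overlap. After each library was centred on the median of all its regions open in the 6 livers, the liver-only regions stood at −0.13 on the log2 scale in young and −0.40 in old livers, a difference of −0.27 (SD 0.02 in young and 0.14 in old, n = 3 each). The exact two-sided permutation test gave p = 0.1, the smallest p that 3 against 3 libraries allow. It differed by −0.29 from the change of the other regions (exact permutation p = 0.1), and 74.3% of the liver-only regions had a log2 change below 0, against 45.5% of the others.

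The gap between liver-only and other regions was seen in several choices of the other regions. Away from promoters it was −0.24, at promoters −0.31, against regions away from promoters whose mean fold enrichment lay between the liver-only quartiles −0.27, and against those with a peak in a single kidney library −0.20. Each gave an exact permutation p of 0.1. In the mirror case, kidney-only regions in the kidney libraries changed with age by −0.08 relative to other kidney regions (exact permutation p = 0.2), and by −0.03 away from promoters (p = 0.6, exact). That gap was small although kidney-only regions were themselves lower in old kidneys, since the other kidney regions were lower too. Without centring, their log2 medians changed by −0.27 and −0.19, with overlap between ages in both. On that scale liver-only regions changed by −0.34 and the other liver regions by −0.05. The difference between the liver and the kidney case was not tested. Several cell markers moved with age in the liver RNA libraries, which are not the ATAC libraries. The summed hepatocyte markers were 190512 to 288649 CPM in young and 105516 to 204024 CPM in old livers, none of the 9 tested passing; 10 Kupffer cell markers summed to 886 to 1438 CPM and 1293 to 2597 CPM, with Vsig4 and Cd5l higher in old livers; 10 leukocyte markers summed to 215 to 345 CPM and 418 to 952 CPM, with 4 of the 8 tested higher. Their part in the fold enrichment was not tested, and in bulk tissue fewer cells of a type cannot be told apart from less signal per cell.

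**Figure D3:**
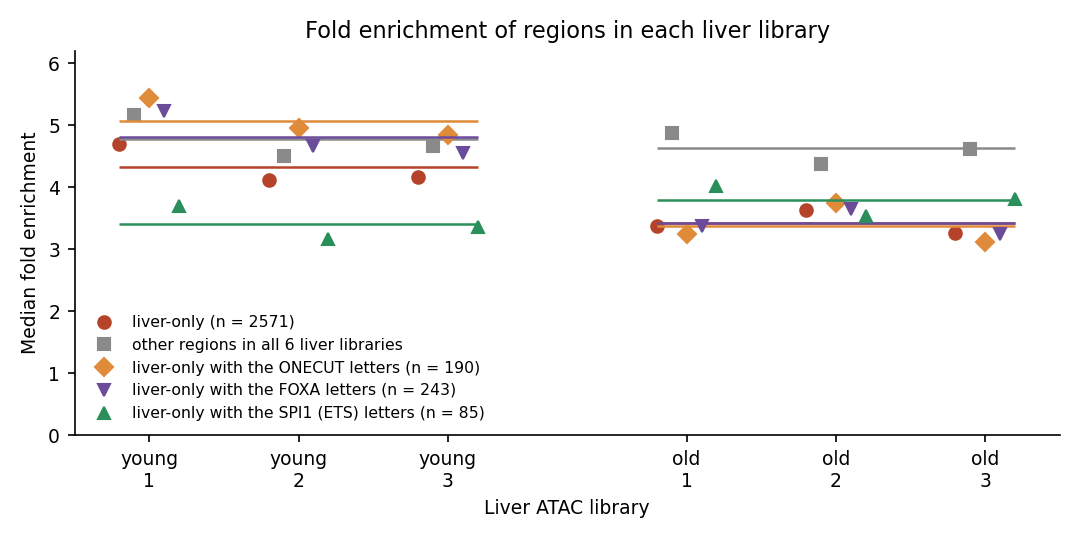
Median fold enrichment in each of the 6 liver libraries for liver-only regions, other regions open in all liver libraries and liver-only regions with selected motifs, with points for libraries and lines for the mean of the libraries of an age. The liver-only medians were 4.12 to 4.70 in young and 3.27 to 3.63 in old livers, while the SPI1 set was higher in each old library but replicate 2 than in each young library.

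Region by region, limma called 184 of the 2571 liver-only regions (7.16%) lower in old livers at an adjusted p below 0.05 and 8 (0.311%) higher. Over all 34839 regions open in the 6 livers the called shares were 1.95% lower and 0.594% higher. Called log2 changes ran from −0.70 to −1.66 among the lower regions and from 0.86 to 1.30 among the higher ones, and 10 of the 184 were promoter regions. These counts depended on single libraries. Without young liver replicate 1, 2 or 3 the lower and higher calls were 25 and 1, 55 and 1, and 22 and 1, and without old liver replicate 1, 2 or 3 they were 40 and 2, 436 and 29, and 45 and 1.

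Of the 10 leading regions, 4 were called lower, among them chr10:3706187-3706796, chr14:114062577-114063251 and chr6:84841064-84841674. The last had a log2 change of −1.33 ± 0.18 (SE; limma adjusted p = 0.000872). The steepest called fall was at chr12:109856106-109856874, which went from 11.1, 8.08 and 12 in young to 2.72, 3.20 and 3.45 in old livers, a log2 change of −1.66 ± 0.22 (SE; limma adjusted p = 0.000872). A region near Jag1, which encodes a Notch ligand, chr2:137061906-137062905, went from 9.86, 8.91 and 9.91 to 4.16, 3.39 and 2.72. In both regions the lowest young library was above every old library. They and the regions that follow were chosen by their call in these libraries, which makes such separation likely. In the opposite direction, chr15:28105967-28106433, whose sequence with GATA letters is shown above, went from 3.37, 1.90 and 3.17 in young to 7.2, 4.71 and 7.84 in old livers (log2 change 1.30 ± 0.26 SE; limma adjusted p = 0.0125). A region near Odr4, chr1:150377224-150377923, went from 2.62, 2.22 and 1.94 to 3.68, 4.38 and 3.99. The 8 regions that rose had no overlap between ages except the one on chromosome 17 near Gm6741, with 4.87, 2.53 and 2.82 in young and 6.72, 4.38 and 7.81 in old livers.

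The fold enrichment with age is given next for the liver-only regions that hold each set of motif letters. Liver-only regions with ONECUT letters had medians of 5.43, 4.95 and 4.83 in young and 3.25, 3.74 and 3.11 in old livers, 91.1% of the 190 had a log2 change below 0, and 23 (12.1%) were called lower, against 7.16% of all liver-only regions. For FOXA letters the medians went from 5.23, 4.67 and 4.56 to 3.38, 3.65 and 3.25, with 84.4% of 243 below 0 and 23 (9.47%) called lower. For C/EBP letters they went from 4.96, 4.28 and 4.40 to 3.36, 3.71 and 3.26, with 81.9% of 515 below 0 and 38 (7.38%) called lower, a share near that of all liver-only regions. Of the 38 regions with HNF4A letters, 37 had values below 0. None of the regions with these 4 letter sets was called higher by limma, and at an unadjusted p below 0.05 the higher regions were 17 with C/EBP letters, 9 with FOXA, 3 with ONECUT and 0 with HNF4A (3.3%, 3.7%, 1.58% and 0.0%), while the lower ones were 164, 93, 97 and 19. Over all 2571 liver-only regions 131 (5.1%) were higher and 793 (30.8%) lower at that limit, and over all 34839 regions 8.24% and 11.1%.

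The 85 regions with SPI1 letters ran in the other direction, with overlap between ages. Their medians were 3.70, 3.17 and 3.35 in young and 4.01, 3.53 and 3.81 in old livers, 25.9% had a log2 change below 0, and limma called none in either direction, with 22 higher and 1 lower (25.9% and 1.18%) at an unadjusted p below 0.05. Relative to the liver-only regions without the letters, the change with age was 0.51 for SPI1, −0.28 for ONECUT and −0.17 for FOXA (exact permutation p = 0.1 each, the smallest possible). Over the 8 motifs compared, the lowest Benjamini-Hochberg adjusted p of these exact tests was 0.16. AP-1 letters, in 190 regions, differed from the rest by 0.03 (exact permutation p = 0.7), and 13 of these regions (6.84%) were called lower. PPAR-RXR letters, in 22 regions only, differed by −0.14 (exact permutation p = 0.1), and 4 of these (18.2%) were called lower. GATA letters, in 121 regions, differed by −0.01 (exact permutation p = 0.8), with 7 (5.79%) called lower and 2 called higher. The higher leukocyte and Kupffer marker sums of old livers given above go beside the SPI1 values, and their part was not tested.

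Genes with a liver-only region at the promoter were more often liver-higher in RNA than genes at large. The 277 promoter regions gave 278 gene names, of which 196 were in the count table and 167 passed the filter on low counts. Called means an adjusted p below 0.05 in edgeR's quasi-likelihood test together with a fold change above 2. Of these genes, 92 were called higher in liver (55.1% of those tested and 46.9% of those in the table) and 15 higher in kidney (8.98% of those tested). Over all 15036 genes tested the shares were 16.3% and 26.9%. The median log2 difference (liver minus kidney) was 1.63 for the promoter genes and −0.08 for all genes tested. Of the 92, 89 were called at both ages (background 16.4% liver-higher in young and 16.1% in old), 92 without old kidney replicate 2, and 89 in the DMSO libraries. The nearest genes of all liver-only regions, 2223 names with 1007 tested, held 383 liver-higher (38.0%) and 176 kidney-higher genes (17.5%), with a median of 0.53, and 399 and 175 without old kidney replicate 2. In the mirror set, 31 of 657 tested genes with a kidney-only promoter region were liver-higher and 466 (70.9%) kidney-higher.

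**Figure D4:**
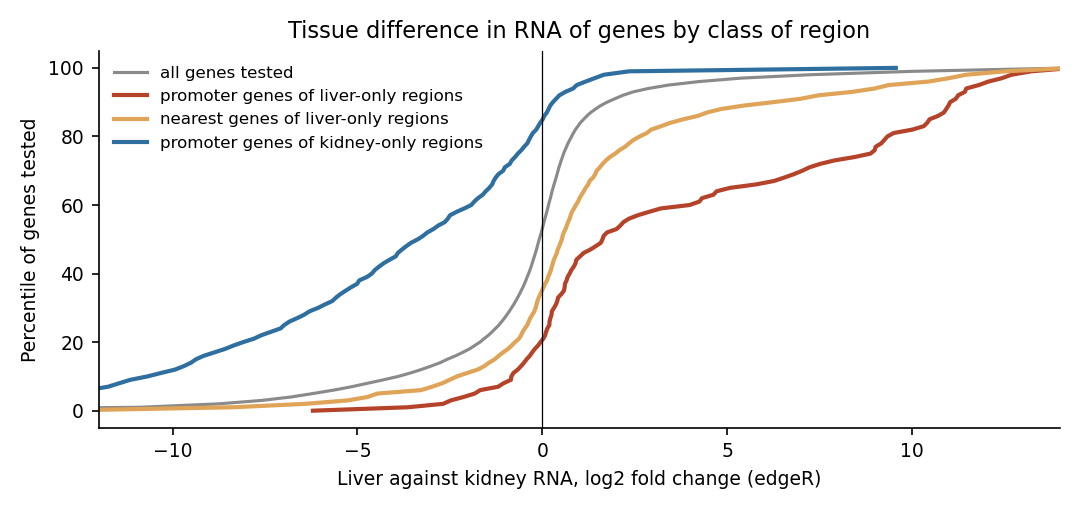
Cumulative distribution of the log2 difference between liver and kidney RNA for all genes tested, promoter genes of liver-only regions, nearest genes of liver-only regions and promoter genes of kidney-only regions. The medians were −0.08, 1.63, 0.53 and −3.37.

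The 10 promoter genes with the largest liver excess included enzymes and plasma proteins made by hepatocytes. Mat1a, which makes S-adenosylmethionine, was at 5888, 6505, 5654 and 5103 CPM in young livers, 5547, 5611, 5291 and 5947 CPM in old livers, 0 in all 4 young kidneys, and 0.035, 59.1, 0.0661 and 0 CPM in the old kidneys. Liver and kidney did not overlap, and old kidney replicate 2 held 2363 of the 2366 kidney reads. Its promoter region, chr14:41104847-41105587, was among the weaker members, at 2.12, 2.87 and 2.39 in young and 2.39, 2.56 and 3.19 in old livers. The log2 difference was 14.35 ± 1.97 (SE; edgeR adjusted p = 1.52e-05), and 18.81 without old kidney replicate 2. Plg, the precursor of the clot-dissolving protease plasmin, was at 4016 to 5244 CPM in young and 4192 to 5539 CPM in old livers, and at 0 to 0.0376 and 0 to 52.7 CPM in young and old kidneys. Cyp7a1 was at 143, 192, 161 and 46.4 CPM in young and 139, 98.8, 37.5 and 118 CPM in old livers. Among the 8 kidney libraries Cyp7a1 was seen only in old kidney replicate 2, at 0.700 CPM. Its promoter region, chr4:6275502-6276041, stood at 3.26, 3.12 and 3.38 in young and 2.26, 2.2 and 3.39 in old livers.

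Against the young kidneys, most of these differences are bounds. With a floor of 3 counts over the 4 young kidney libraries and reads scaled by library totals, Mat1a was at least 94160-fold higher in young liver, Ces3b (a carboxylesterase) at least 11933-fold, Hal (histidine breakdown) at least 10573-fold, F9 (coagulation factor IX) at least 6083-fold, C8b (a chain of complement C8) at least 5475-fold and Cyp7a1 at least 2248-fold. Tdo2, the first enzyme of tryptophan breakdown, had 6 young kidney reads and was 12102-fold higher (95% interval 5560 to 32979). Uox, which breaks down urate, and Wfdc21 had 2 young kidney reads each, with ratios of 60305 (16694 to 497966) and 15213 (4211 to 125623). Plg had 1 young kidney read and a ratio of 227444 (40821 to 8983586). With the TMM scaling of the CPM values in place of library totals, each of these ratios, bounds and interval limits is 2.11 times as large, for example 25569 for Tdo2. Intervals and floors cover counting error only. Over the 92 liver-higher genes, the median kidney level was 0.105% to 0.139% of the liver level in the young kidneys. It was 0.595%, 1.65%, 0.347% and 0.562% in the old kidneys, where replicate 2 was the highest.

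Liver function genes often lay by a liver-only region, though more often at a distance than at the promoter. Of 185 genes in 9 lists, 69 were near a liver-only region, that is, its nearest gene, its nearest protein-coding gene or its promoter gene, and 25 had one at the promoter. In the whole count table of 24984 genes the shares were 8.11% and 0.785%. Bile acid synthesis and transport had the most promoter regions, with 11 of 20 genes near a region and 6 at the promoter, Cyp7a1, Slc27a5, Abcb11, Abcb4, Abcg5 and Abcg8. All 11 were liver-higher. Abcb4 had a promoter region at chr5:8928285-8928876 with fold enrichment of 7.85, 5.73 and 4.88 in young and 5.92, 5.22 and 4.21 in old livers. Abcb4 RNA was at 391, 348, 563 and 443 CPM in young livers, 229, 258, 235 and 269 CPM in old livers, and at most 3.98 CPM in the kidneys (log2 difference 9.01, and 9.66 without old kidney replicate 2).

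The urea cycle and amino acid list had 12 of 27 genes near a region and 4 at the promoter, Tdo2, Hal, Gnmt and Mat1a, with Cps1, Slc25a13 and Glul among those at the highest fold enrichment. Cps1, which starts the urea cycle, differed by 14.12 on the log2 scale, and by 18.86 without old kidney replicate 2. Plasma proteins had 10 of 20, with Serpina1a and Ambp at the promoter, and 20 of 20 liver-higher. Coagulation and fibrinolysis had 9 of 19, with F2, F9, F10 and Plg at the promoter, and complement 6 of 17, with C3, C4b, C8b and Mbl1 at the promoter. Every gene of these 3 lists was liver-higher. Glucose, glycogen and ketone metabolism had 9 of 18 genes near a region, with Pygl and Insr at the promoter, and 12 of 18 liver-higher. Lipoprotein handling had 3 of 18, Apob, Pon1 and Lcat, the last at the promoter. The cytochrome P450 list was at the other end. Only Cyp2b10 of its 20 genes was near a liver-only region and none had one at the promoter, although 19 of the 20 were liver-higher.

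Among 26 liver transcription factors, 8 were near a liver-only region, Hnf4a, Foxa1, Foxa2, Onecut2, Nr5a2, Tbx3, Esr1 and Gata4. Counted by the nearest protein-coding gene, Foxa1, Foxa2 and Nr5a2 had 4 regions each. Nr5a2, a bile acid regulator, was at 35.7 to 61.2 CPM in young and 17.5 to 76.3 CPM in old livers against at most 0.800 CPM in kidneys. Onecut2 was at 42.3 to 107 CPM in young and 51.8 to 81.3 CPM in old livers and at most 0.50 CPM in kidneys. Hnf4a stood apart from these genes, since it has a liver-only promoter region while its RNA was abundant in both tissues. It was at 788 to 1010 CPM in young livers, 683 to 981 CPM in old livers, 576 to 712 CPM in young kidneys and 450 to 531 CPM in old kidneys (log2 difference 0.61 ± 0.12 SE; edgeR adjusted p = 0.000325, below the fold limit). The liver-only region at its promoter, chr2:163506427-163507150, stood at 6.11, 5.76 and 4.80 in young and 1.92, 4.36 and 3.15 in old livers, without overlap (limma adjusted p = 0.0974).

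Genes of other liver cells were among the members too. Of 10 sinusoidal endothelial markers, 6 were near a liver-only region and Lyve1, Fcgr2b and Gata4 had one at the promoter. Gata4 was at 22.0 to 28.9 CPM in young livers and 18.8 to 29.1 CPM in old livers, against at most 0.425 CPM in kidneys. Of 10 Kupffer cell markers, Clec4f, Cd5l and Csf1r were near a region, Cd5l at its promoter. Of 10 stellate cell markers, Reln and Dcn were counted only as the nearest protein-coding gene, at 86998 and 229392 bp. Over all genes in the count table the share near a region was 8.11%. No region lay by any of 8 cholangiocyte, 10 leukocyte or 22 kidney markers.

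A minority of the promoter genes had more RNA in kidney. St6galnac2, a sialyltransferase, was at 0.542 to 1.42 CPM in young and 1.75 to 2.64 CPM in old livers, and at 84.4 to 118 and 75.2 to 127 CPM in young and old kidneys. That is a log2 difference of −6.20 ± 0.20 (SE; edgeR adjusted p = 7.66e-14). Its liver-only region, chr11:116681043-116681541, stood at 4.62, 3.62 and 3.73 in young and 2.55, 3.39 and 2.71 in old livers. Ppp2r2b, a regulatory subunit of protein phosphatase 2A, differed by −4.28, Spag8 by −3.30, Gdpd5 by −2.77 and Arrdc1 by −2.49. The region at Spag8 is a promoter region of Hint2 as well. Spag8 was under 1 CPM in every untreated library, with 0.20 to 0.981 CPM in kidneys and 0 to 0.258 CPM in livers, and in the DMSO libraries its log2 difference was −0.74 (edgeR adjusted p = 0.0361), below the fold limit. Without old kidney replicate 2 these values were −6.25, −4.28, −3.37, −2.77 and −2.54.

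When each region was given to the nearest annotated TSS, predicted genes included, no gene was the nearest to many members, the largest number being 5, and 292 genes were nearest to at least 2 regions. Among the named genes, which leave out predicted ones, Slc22a15, Atp2b2 and Abcb4 had 4 regions each and Nrg1, Agmo, Scn3a, Mstn and Bace2 3 each, as did further genes that were left out by summed fold enrichment. When only protein-coding genes were used for the assignment, Adgrl2, Eipr1, Ptprm and 1190002N15Rik had 6 regions each, and Abcb4, Cyp7a1 and Atp2b2 were among those with 5. Their RNA did not follow a common direction. Agmo, which cleaves ether lipids, was at 126 to 160 CPM in young and 70.7 to 128 CPM in old livers and at 6.54 to 8.41 CPM in kidneys (log2 difference 4.04). Slc22a15, Atp2b2 and Bace2 differed by 1.76, 1.48 and 1.31. Nrg1, an ErbB ligand, was kidney-higher with a log2 difference of −4.46, at 0.129 to 0.241 CPM in young and 0.304 to 1.16 CPM in old livers against 4.65 to 10.6 CPM in kidneys. Scn3a and Mstn were at or near 0 in all libraries and were not tested.

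With age, edgeR called few promoter genes of liver-only regions in liver RNA. Of 164 tested, 4 were higher and 4 lower in old livers (2.44% each) by edgeR at an adjusted p below 0.05 and a fold above 2, against 1.69% higher and 0.439% lower over all 12537 genes tested. At an unadjusted p below 0.05 there were 43 (26.2%), against 14.7% of all genes tested. DESeq2 called 11 of 176 higher and 7 lower (6.25% and 3.98%), against 3.51% and 0.797% of all genes. Of the lower genes, Abcg5, Abcg8 and Ces3b serve sterol and lipid handling, and Lyve1 marks endothelium. No other of the 10 sinusoidal endothelial markers was called lower. Their sum was 606 to 674 CPM in young and 642 to 664 CPM in old livers. Abcg5 and Abcg8, which together form the sterol exporter into bile, fell together and share a single promoter region, chr17:84682296-84683812. Abcg5 went from 145, 115, 119 and 165 CPM in young to 42.4, 53.6, 44.8 and 48.5 CPM in old livers (log2 change −1.51 ± 0.17 SE; edgeR adjusted p = 0.00168). Abcg8 went from 174, 131, 116 and 171 to 54.5, 66.7, 59.8 and 59.9 CPM. Ces3b went from 698, 742, 939 and 581 to 270, 108, 128 and 165 CPM. In none of these 3 genes did the ages overlap, which choosing them by their call in these same libraries makes likely. Lyve1, a hyaluronan receptor of sinusoidal and lymphatic endothelium, went from 18.4 to 33.6 CPM in young livers to 7.73 to 10.9 CPM in old livers (log2 change −1.28 ± 0.23 SE; edgeR adjusted p = 0.0182).

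The higher genes were Rcan2, a calcineurin regulator, Rgs12, a regulator of G-protein signaling, Inf2, an actin-assembling formin, and Cd5l, which macrophages secrete. Rcan2 went from 14.7, 13.4, 13.5 and 8.42 CPM in young to 64.3, 33.5, 41.1 and 31.3 CPM in old livers (log2 change 1.78 ± 0.27 SE; edgeR adjusted p = 0.00852). Rgs12 went from 6.69 to 9.49 CPM to 15.5 to 24.8 CPM, and Inf2 from 28.6 to 47.3 CPM to 67.4 to 99.9 CPM. Cd5l went from 225, 214, 148 and 270 CPM to 425, 798, 686 and 300 CPM (log2 change 1.38 ± 0.32 SE; edgeR adjusted p = 0.0467). For all 4 the ages were apart, again in the libraries that gave the call. Cd5l is itself one of the Kupffer cell markers whose sum was higher in old livers, and the part of cell numbers was not tested. Some of these calls rested on single libraries. By edgeR's adjusted p, Inf2 was no longer called without young liver replicate 1 (0.0771), 3 (0.0918) or 4 (0.0642) or old liver replicate 3 (0.0703). Cd5l was lost without any 1 of young liver replicates 1 to 4 (0.123, 0.128, 0.155 and 0.0691) and without old liver replicate 2 (0.112) or 3 (0.135). Lyve1 was lost without young liver replicate 1 (0.0556) or 3 (0.0548) or old liver replicate 2 (0.0509) or 3 (0.0601), and Rgs12 without young liver replicate 3 (0.0536). Counts of higher genes were 1 without young liver replicate 3, 2 without young liver replicate 1, young liver replicate 4 or old liver replicate 3, and 12 without old liver replicate 1.

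Of the 8, Rcan2, Cd5l and Lyve1 also differed between liver and kidney in their change with age (edgeR interaction, adjusted p below 0.05; background 1.72%), although Cd5l was no longer called without old kidney replicate 2 (adjusted p = 0.0516). These 8 genes have 7 promoter regions, and limma called none of them with age in fold enrichment, with 0 at an unadjusted p below 0.05. The Abcg5 and Abcg8 region stood at 4.68, 3.77 and 3.53 in young and 3.72, 3.82 and 3.45 in old livers, with overlap between ages. The Ces3b region stood at 3.8, 4.41 and 2.94 and at 2.88, 2.59 and 2.6, and the Cd5l region at 3.25, 2.53 and 3.58 and at 3.96, 4.38 and 3.36. From the other side, the 184 regions lower in old livers had 181 nearest genes, of which 53 were tested in RNA. Of these 53, edgeR called 1 lower in old livers, Sort1, and none higher, and DESeq2 gave the same counts. At an unadjusted p below 0.05, 5 were lower and 8 higher (24.5% in all, against 14.7% of all genes tested). The mice of the RNA and ATAC libraries are not tied to each other by the labels.

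**Figure D5:**
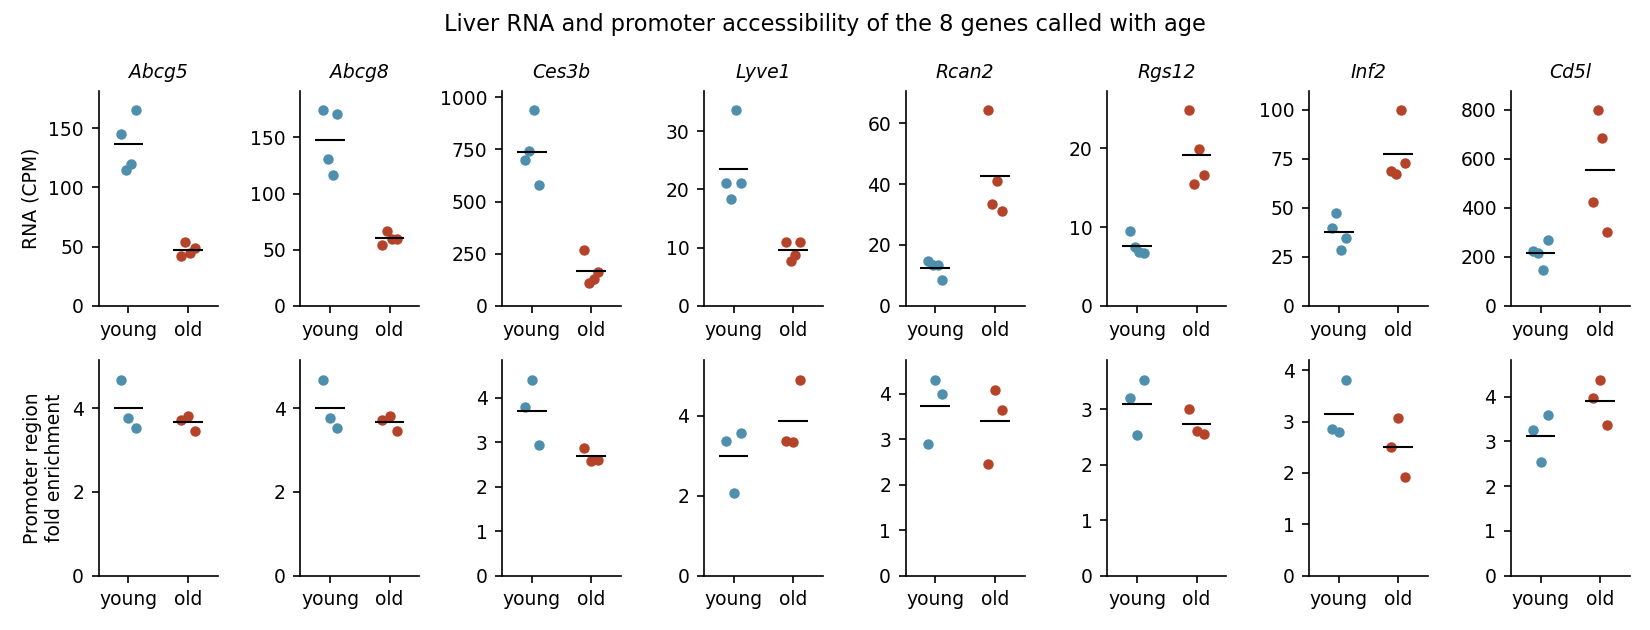
RNA (CPM, upper panels) and fold enrichment of the promoter region (lower panels) in young and old livers, each point a library and each line a mean, for the genes with a liver-only promoter region called with age in RNA. The 8 genes were chosen by their RNA call in these libraries, which makes separate ages in RNA likely. No promoter region was called.

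In the livers of 20-21 month old mice the tissue contrast was similar and 3C gave no call. Of 169 promoter genes tested in the DMSO libraries, 95 were liver-higher and 15 kidney-higher, against 15.7% and 26.6% of all 14981 genes tested. Between the 4 liver libraries given 3C and the 4 given DMSO, edgeR called 0 of the 169 promoter genes and 0.0% of all 13042 genes tested, with 5 and 436 at an unadjusted p below 0.05. DESeq2 called 0 of the promoter genes and 3 of all genes at the same limits. For Cyp7a1 the log2 difference was −0.45, for Ces3b −0.26 and for Abcg5 0.12. For Lyve1 it was 0.82 ± 0.25 (SE), with means of 4.15 CPM with DMSO and 7.37 CPM with 3C, and not called.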

How the data were processed

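Peaks and counts were taken as deposited. Per the study's methods and the submitters' processing notes, the deposited counts are reads per gene that the authors obtained with HTSeq 0.12.4, ignoring strand, after trimming (Trimmomatic 0.39) and alignment to mm10 (HISAT2 2.2.1). Tally rows that name no gene were left out. Among them, reads in no annotated feature made up 5.70% to 18.8% of the counts of each library. ATAC reads were aligned with Bowtie2 2.3.5.1, duplicates were removed, and MACS2 called peaks in each library with a shift for the Tn5 cut. The deposited peak files give fold enrichment, a ratio to local background, and −log10 p and q values as written by the authors' caller. They hold no read counts, so the depth behind a fold enrichment is unknown. Peaks of one library that share coordinates but differ in summit were taken as 1 peak.

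Merging, distances and motif searches were done in Python 3.11.15 (pandas 2.3.3, scipy 1.17.1) on GRCm38 with its gene annotation. No region ran beyond a chromosome end. The fold enrichment of a region is that of its highest peak, on the log2 scale, centred per library on the regions open in all livers, and tested with limma 3.58.1 in R 4.3.3. Motifs were searched on both strands in 201 bp at the strongest liver summit; overlapping motifs count for each, and the HNF4A and PPAR-RXR letters can share bases. RNA was tested with edgeR 4.0.16 (quasi-likelihood, TMM, filterByExpr with a minimum count of 10, all 16 untreated libraries in 1 fit for liver against kidney), with Benjamini-Hochberg adjustment over all genes tested. DESeq2 1.42.0 was an alternative. Tests were checked on simulated data.

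The members, gene lists and motifs were chosen with earlier results of these data known. Genes were named by a rule, namely the 10 regions with the highest fold enrichment, the 10 promoter genes with the largest liver excess and the 5 with the largest kidney excess among those called, up to 5 called in each direction with age, the 8 nearest to the most regions and up to 4 examples per list. Ties for the most regions were settled by summed fold enrichment, a choice made after the values were seen, as was the naming of Hnf4a, Gata4, Onecut2, Nr5a2 and the regions that differed with age. Some genes and regions that the rule takes in, and a motif first searched with the others, are not reported here. Same-numbered young kidney and liver RNA libraries deviated together (correlations of 0.17 to 0.60), a hint from the data and not from the labels. With the number as a block, 94 liver-higher and 17 kidney-higher promoter genes were called in young mice, the same counts as without it. In the other comparisons the numbers did not pair libraries. Kidney 3C and skin fibroblast libraries were not used here.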

Additional observations from a re-analysis of the deposited data

Results flagged for a closer look

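Of 167 tested genes with a liver-only promoter region, 9 (5.39%) changed differently with age in liver and kidney by edgeR's interaction test at an adjusted p below 0.05, against 1.72% of all 15036 genes. Values are given for the 5 among the genes described above. Rcan2 rose more in liver, by 1.77 on the log2 scale (adjusted p = 0.0111, and 0.0182 without old kidney replicate 2). Cd5l rose less in liver than in kidney, by −4.59 (adjusted p = 0.0401), where it went from at most 0.164 CPM in young to 0.595 to 12.7 CPM in old kidneys; without old kidney replicate 2 the difference was −3.71 (adjusted p = 0.0516). Lyve1 fell in liver while kidney values went from 0.206 to 0.866 to 0.958 to 1.88 CPM, a difference of −2.68 (adjusted p = 0.0074, and 0.0113 without old kidney replicate 2). For C4b the difference was −2.66 (adjusted p = 0.0127 with and without old kidney replicate 2), with 3.09 to 7.21 CPM in young and 24.4 to 72.1 CPM in old kidneys. For F2 it was −5.51 (adjusted p = 0.0407), with 0.0501 to 0.540 CPM in young and 1.44 to 38.7 CPM in old kidneys, and −2.96 without old kidney replicate 2 (adjusted p = 0.0153).

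Single libraries stood apart from the other 3 of their group by Dixon's test, which chance alone passes in about 1 of 20 groups. Old kidney replicate 2 did so for Mat1a at 59.1 CPM, Plg at 52.7, Uox at 24.2, Hal at 12.8, Tdo2 at 9.0, Wfdc21 at 7.53, F9 at 2.70, Ces3b at 1.18, Abcg5 at 0.825, Cyp7a1 at 0.700 and C8b at 0.675 CPM, each higher than the other old kidneys. All of these genes were liver-higher, and the hepatocyte marker sum of this library was 2318 CPM. In other libraries the values were Plg at 0.0376 CPM in young kidney replicate 1 and Uox at 0.10 CPM in young kidney replicate 3, each with 0 in the other young kidneys, and Mstn at 0.0141 CPM in old kidney replicate 4. F9 was at 453 CPM in young liver replicate 3, above the others at 348 to 361 CPM. Ppp2r2b was at 6.55 CPM in old kidney replicate 1, above 5.45 to 5.48 CPM. Lower than their groups were Atp2b2 at 1.26 CPM in old kidney replicate 3, Nrg1 at 0.129 CPM in young liver replicate 1 and Agmo at 70.7 CPM in old liver replicate 3. No cause of these values was tested.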

How the results depend on the processing

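No result reversed under any alternative run. With peaks limited to a −log10 q of at least 5 there were 725 liver-only regions, 12.4% of them at promoters, 58 called with age, and 22 liver-higher and 7 kidney-higher promoter genes. Leaving out 1 library gave 2682 to 3876 regions, the most without old liver replicate 3, by construction since fewer libraries must agree, with 10.4% to 11.5% at promoters. Counting only protein-coding TSS gave 6.81% at promoters, and distance from the summit 8.36%. The median fold enrichment change was −0.29 to −0.20 with 1 library left out. Calls with age in fold enrichment were 116 when the peaks of a region were averaged, and 23 to 465 with 1 library left out. With genes assigned by the nearest TSS, or by the nearest within 10 kb, liver-higher counts were 383 and 257, kidney-higher 176 and 89, those higher in old livers 21 and 12, and liver-higher in DMSO libraries 383 and 255; by the nearest TSS 9 were lower in old livers. An adjusted p alone gave 25 kidney-higher genes. DESeq2 gave 11 higher and 7 lower in old livers. With 1 RNA library left out the ranges were 91 to 96 liver-higher, 13 to 15 kidney-higher, 1 to 12 higher and 3 to 5 lower in old livers, 94 to 98 in DMSO, and 0 changed by 3C. With 1 ATAC library left out they were 93 to 141 liver-higher, the most without old liver replicate 1, and 15 to 27 kidney-higher, with 24 without old liver replicate 2 and 27 without old liver replicate 3. For these changes the cause was not tested, other than fewer genes or regions entering. Among values of named genes, 551 kept their side of the threshold and 18 lost it.

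Same-numbered libraries deviated together in the young tissue comparison and not throughout in the others. Correlations of their deviations from the group means were 0.18, 0.36, 0.17 and 0.60 between young kidney and liver RNA, 0.37, 0.36, −0.39 and −0.04 between old, −0.27, 0.38, 0.10 and −0.35 between young and old liver RNA, 0.14, 0.18, 0.04 and 0.02 between kidney and liver DMSO, 0.15, 0.09, 0.24 and −0.12 between liver DMSO and 3C, and 0.01, −0.00 and 0.01 between young and old liver ATAC. With the replicate number as a block, 2 promoter genes were higher in old livers and 177 regions were called with age in fold enrichment.

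Depth limits the RNA of liver genes in young kidneys, where several have no read, and the number of 3 ATAC libraries per group limits exact tests to p = 0.1.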
